A study of Mus musculus with 6 samples.

Results

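The 10 genes described here take part in carrying newly made enzymes to the lysosome. They were measured in an immortalized mouse podocyte line given an siRNA against Tfeb or a scrambled siRNA. They are the 10 rows of the deposited expression table, of 53715 in all, whose gene symbol is M6pr, Igf2r, Sort1, Scarb2, Gnptab, Gnptg, Nagpa, Gga1, Gga2 or Gga3. They were picked by name for their place in lysosomal enzyme sorting, with earlier results of these data known. A podocyte is an epithelial cell of the kidney whose foot processes cover the glomerular capillaries. The Tfeb siRNA group (genotype label TFEB knockdown) and the scrambled siRNA group (genotype label WT) had 3 RNA sequencing libraries each. Both groups shared 1 culture scheme: expansion at 33 °C in medium holding 10% serum and interferon gamma, then 10 to 14 days of differentiation at 37 °C, in 5% serum and on collagen I given as 12 mg/ml. All libraries are thus of 1 cultured line in which Tfeb was lowered but not removed, and nothing in the labels says that replicates were separate cultures. The p-values then reflect no more than how far these samples differ from each other, and that may be technical variation.

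Soluble lysosomal enzymes are known to receive a mannose 6-phosphate tag on their sugar chains in the Golgi. GlcNAc-1-phosphotransferase attaches a phosphate capped by a sugar, and the uncovering enzyme removes the cap. Mannose 6-phosphate receptors then bind the tag in the trans-Golgi network, and GGA adaptors gather the loaded receptors into clathrin-coated carriers by their cytoplasmic tails. Sortilin and LIMP-2 carry other cargo to the lysosome without this tag. TFEB is a transcription factor known to activate many lysosomal genes through CACGTG-type sites, and in humans loss of the LIMP-2 gene SCARB2 is known to cause kidney disease of the glomerulus together with epilepsy.

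Libraries held 18062898 to 20610888 reads, derived from the deposited values. Tfeb itself stood at 0.639, 0.714 and 0.822 FPKM (fragments per kilobase, scaled to library depth) in Tfeb siRNA libraries, against 1.80, 2.05 and 2.27 FPKM in scrambled siRNA libraries. It was 2.82-fold lower by the ratio of means (limma log2 fold change -1.05, SE 0.13, adjusted p = 0.00148). Of the podocyte markers, Nphs1 (nephrin) lay between 0.0469 and 0.268 FPKM and Wt1 between 0.215 and 0.579 FPKM, so these defining transcripts were at low levels. Synpo, the actin-linked protein synaptopodin, averaged 47.6 FPKM in Tfeb siRNA and 74.4 FPKM in scrambled siRNA libraries, and Podxl, podocalyxin, 15.8 FPKM in Tfeb siRNA and 8.72 FPKM in scrambled siRNA libraries. Whether this shift in markers has a part in the results below was not tested.

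The promoters of 8 of the 10 genes were matched in RefSeq (build GRCm38.p6), as windows of 250 bases before to 50 bases after each start. Because TFEB and its relatives bind the palindrome CACGTG, the windows were searched on both strands for CACGTG and for its longer forms TCACGTGA and GTCACGTGAC, which contain it. The Igf2r and Gnptg windows are shown in full because they hold the long forms, in capitals. Igf2r has GTCACGTGAC beginning 9 bases before its start and TCACGTGA beginning 49 bases before it. Gnptg has TCACGTGA beginning 22 bases before the annotated transcription start of the window shown, and the same site lies in the window of its other annotated start.
Igf2r promoter, chr17:12769657-12769956, minus strand: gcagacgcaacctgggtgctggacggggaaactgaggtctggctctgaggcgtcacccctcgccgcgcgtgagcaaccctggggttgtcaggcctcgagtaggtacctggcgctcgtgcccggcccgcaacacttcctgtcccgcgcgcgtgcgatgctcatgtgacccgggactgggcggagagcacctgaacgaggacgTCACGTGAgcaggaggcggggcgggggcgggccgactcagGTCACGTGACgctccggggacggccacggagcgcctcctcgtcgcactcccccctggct
Gnptg promoter, chr17:25240067-25240366, minus strand: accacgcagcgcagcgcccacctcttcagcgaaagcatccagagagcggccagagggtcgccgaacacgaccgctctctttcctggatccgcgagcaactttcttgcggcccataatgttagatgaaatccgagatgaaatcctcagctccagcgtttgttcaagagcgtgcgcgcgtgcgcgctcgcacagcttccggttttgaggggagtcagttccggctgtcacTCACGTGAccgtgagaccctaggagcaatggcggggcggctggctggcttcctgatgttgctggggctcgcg

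Nagpa and Gga2 hold only the short form, shown here with 30 bases around it. Nagpa has a pair of such sites on both sides of its start, and the Gga2 site begins at the last base before its start.
Nagpa promoter site, chr16:5203997-5204026, minus strand: gaatCACGTGgggcgagccCACGTGaccgg
Gga2 promoter site, chr7:122021182-122021211, minus strand: ggcccgccccgtCACGTGcctctcagtgtc

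CACGTG was found in 4 of the 8 genes with a promoter window, against 12.1% of 8495 tested genes with one and 7.15% of all 32851 windows. TCACGTGA was found in 2 of the 8, against 2.44% of those tested genes. GTCACGTGAC was found in Igf2r alone of the 8, against 0.895%. None of the 3 motifs was found in the windows of Scarb2, Gnptab, Gga1 and Gga3. The Scarb2 window, 92505608 to 92505907, lies inside the annotated gene, which begins at 92506833 on the minus strand. The sequence around that position was not searched. A match is a run of letters in a window, not a measured binding site.

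Sequence at the other end of the transcript also differed between the genes. Bases 2 to 8 of an siRNA strand, its seed, are known to pair with short 3' UTR stretches of unintended transcripts and to lower them. The sequences of these siRNAs were not given in the sources used here. In an earlier look at these same fold changes, 4 words of 7 bases stood out in the longest annotated 3' UTR of genes that fell, and 4 others in genes that rose. The falling words are CTACATA with its overlapping neighbour TACATAA, as well as GGCCATG with its overlapping neighbour GCCATGA. The rising words are TCGGAGA with its overlapping neighbour CGGAGAA, as well as TGTCACG with its overlapping neighbour GTCACGA. The words were thus chosen on these data, so their presence supports nothing about the direction of a gene. Only the sense strand of the 3' UTR was searched, and words may overlap each other.

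Of the 10 genes, M6pr, Gga1 and Gga2 hold words of the falling kind, which 33.5% of 10474 genes searched hold. Sort1 and Gnptab hold words of the rising kind, which 9.36% hold. The other 5 genes hold none. Gga1 has 3 falling words, as many as Gga2, yet its transcript was not called lower, and its sites are not printed. Gga2 has 3 falling words and M6pr has 2, shown with the word in capitals and 30 bases of the 3' UTR. These sites were picked by outcome, because both of these transcripts were called lower, so no link between word and fall follows from them.
Gga2 3' UTR, from position 581: gcaaggggcttGCCATGAaaccaggagacc
Gga2 3' UTR, from position 2787: tgtgtcaagttTACATAAaactaaccaagc
Gga2 3' UTR, from position 2877: tacacataactGGCCATGgttgggtcttgg
M6pr 3' UTR, from position 264: ataggcagaaaGCCATGAgccctggctgta
M6pr 3' UTR, from position 553: attggaccctgGGCCATGgtttataaatcc

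Positions are those of the first base of the word, counted from the first base of the 3' UTR. Gga1 holds GGCCATG at 3 places. Of all genes searched, 25.7% of those with a falling word were lower, against 13.9% of the others. Of those with a rising word, 31.7% were higher, against 16.5% of the others. Both contrasts follow from how the words were chosen, on these same fold changes, and are no result. The length of the 3' UTR was not taken into account. What part these words have in the changes of the sorting genes was not tested.

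The called sorting genes did not share a direction. All 10 had a mean of at least 1 FPKM and were tested: Scarb2, Gnptab, Gnptg and Gga3 rose, M6pr and Gga2 fell, and Igf2r, Sort1, Nagpa and Gga1 did not pass the test. The 6 of 10 called compare with 33.3% called of all 12257 tested genes, in the limma test at an adjusted p below 0.05. By direction, 4 of 10 rose, against 16.9% of all tested genes, and 2 of 10 fell, against 16.4%. The changes were of ordinary size: the median absolute log2 fold change was 0.19 over the 10 genes and 0.19 over all tested genes. The largest, that of Gga2, was exceeded by 12.7% of tested genes. The median log2 fold change was 0.12 over the 10 genes and 0.02 over all tested genes.

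**Figure D1:**
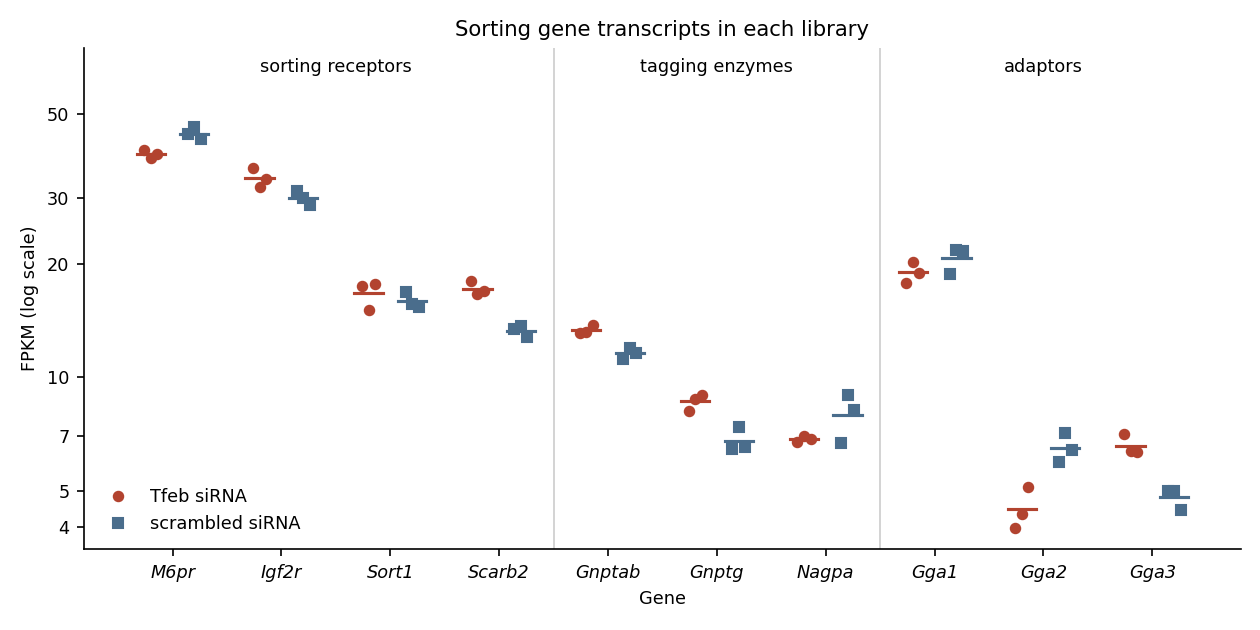
FPKM (log axis) of each of the 10 genes in every library, with circles for the 3 Tfeb siRNA libraries and squares for the 3 scrambled siRNA libraries, and short lines at the group means. Circles and squares do not overlap for M6pr, Igf2r, Scarb2, Gnptab, Gnptg, Gga2 and Gga3, and overlap for Sort1, Nagpa and Gga1.

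In levels per gene length, the mannose 6-phosphate receptors were the most abundant of the 10 in both groups. The order in Tfeb siRNA libraries was M6pr, Igf2r, Gga1, Scarb2, Sort1, Gnptab, Gnptg, Nagpa, Gga3 and Gga2, with means of 39.3 FPKM at the top and 4.47 FPKM at the bottom. In that order Gga1 and Scarb2, Scarb2 and Sort1, and Nagpa and Gga3 overlapped with their neighbour over the 3 libraries. The order in scrambled siRNA libraries was M6pr, Igf2r, Gga1, Sort1, Scarb2, Gnptab, Nagpa, Gnptg, Gga2 and Gga3, with means of 44.5 FPKM at the top and 4.81 FPKM at the bottom. There only Nagpa and Gnptg, and Gnptg and Gga2, overlapped with their neighbour. Gga2 and Gga3 thus stood in the opposite order in the 2 groups, and in neither group did their values overlap.

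Each value rests on 287 reads (Nagpa, Tfeb siRNA replicate 1) to 6159 reads (Igf2r, Tfeb siRNA replicate 3), which gives a counting error of 5.90% to 1.27%. A level in such a bulk library does not tell fewer expressing cells from less RNA per cell.

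M6pr encodes the small, cation-dependent mannose 6-phosphate receptor (ENSMUSG00000007458, chromosome 6, 122308720 to 122317680, plus strand, mm10). It had 40.3, 38.3 and 39.3 FPKM in Tfeb siRNA libraries, against 44.2, 46.2 and 43.0 FPKM in scrambled siRNA libraries. All 3 Tfeb siRNA libraries lay below all 3 scrambled siRNA libraries. M6pr fell 1.13-fold, the smallest called change of the 10 (limma log2 fold change -0.18, SE 0.05, adjusted p = 0.0340). The call was lost when any 1 of the 6 libraries was left out, with an adjusted p of 0.0564 without Tfeb siRNA replicate 1 to 0.106 without scrambled siRNA replicate 2. The words of 50 bases in its transcripts recurred for 6.12% in its pseudogene M6pr-ps, so a small part of its reads may be shared between both.

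Igf2r encodes the large, cation-independent mannose 6-phosphate receptor, which also binds insulin-like growth factor 2 and delivers it for degradation (ENSMUSG00000023830, chromosome 17, 12682406 to 12769664, minus strand). It had 36.0, 32.1 and 33.8 FPKM in Tfeb siRNA libraries, against 31.2, 29.9 and 28.8 FPKM in scrambled siRNA libraries. The lowest Tfeb siRNA library stood just above the highest scrambled siRNA library, and the ratio of means was 1.13. Igf2r did not pass the limma test (log2 fold change 0.18, 95% interval 0.03 to 0.32, adjusted p = 0.0622). It passed with the replicate number as a block (adjusted p = 0.0304). Its antisense neighbour Airn, known for silencing the paternal Igf2r copy in mouse, overlaps its gene body but shares 0 exon bases with it.

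The balance of the receptor transcripts was compared within each library, where library scaling cancels. M6pr to Igf2r stood at 1.12, 1.19 and 1.16 in Tfeb siRNA libraries, against 1.42, 1.54 and 1.49 in scrambled siRNA libraries. The groups had to separate here, because all Tfeb siRNA libraries lay below all scrambled siRNA libraries for M6pr and above them for Igf2r. The permutation p of this ratio was thus fixed by the values of each gene and adds no support. The mean log2 ratio was 0.21 ± 0.05 in Tfeb siRNA and 0.57 ± 0.06 in scrambled siRNA libraries (SD, n = 3 each), a difference of -0.36 (exact two-sided permutation p = 0.1, the smallest that 3 against 3 libraries allow). Put as a share, which restates the same ratio, M6pr made up 53.7% ± 0.789 of the summed FPKM of both receptors in Tfeb siRNA libraries. In scrambled siRNA libraries it made up 59.7% ± 1.05.

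**Figure D2:**
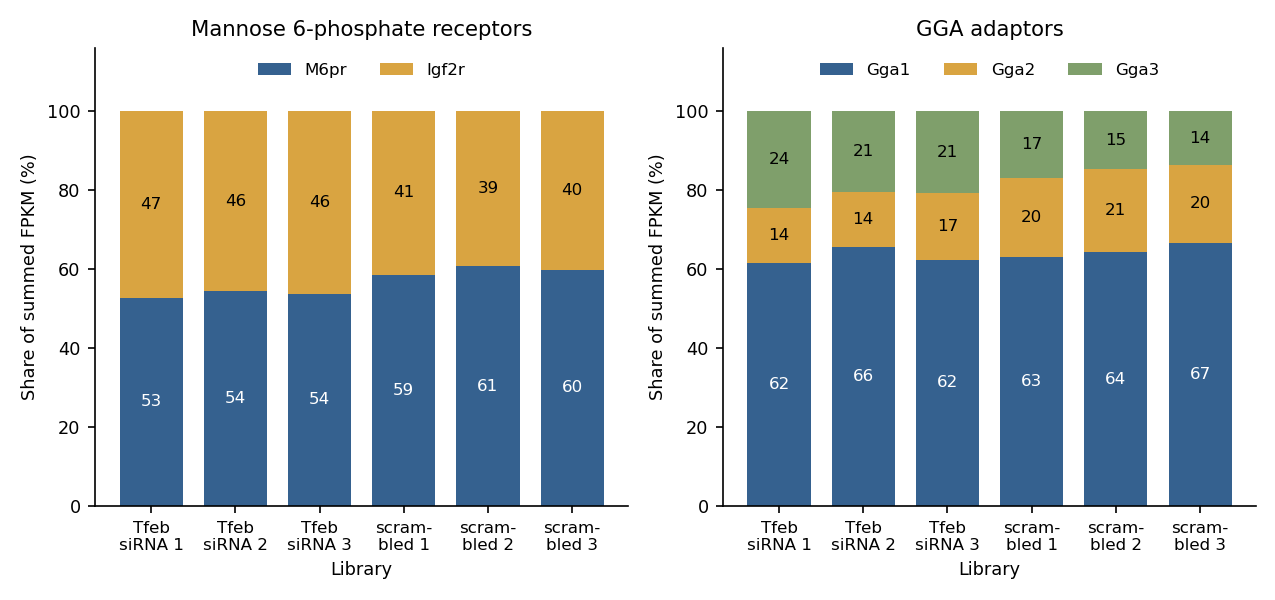
Share of summed FPKM (%) in each of the 6 libraries, for the mannose 6-phosphate receptors (left) and the GGA adaptors (right), with segments for each gene. M6pr takes 53.7% on average in Tfeb siRNA libraries and 59.7% in scrambled siRNA libraries, and Gga3 takes 21.9% in Tfeb siRNA and 15.1% in scrambled siRNA libraries.

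Scarb2 encodes LIMP-2, a lysosomal membrane protein that acts as a sorting receptor (ENSMUSG00000029426, chromosome 5, 92441314 to 92506833, minus strand). It had 18.0, 16.6 and 17.0 FPKM in Tfeb siRNA libraries, against 13.5, 13.7 and 12.8 FPKM in scrambled siRNA libraries. The groups were well apart, with 2029, 2115 and 2060 reads in the Tfeb siRNA libraries. Scarb2 had the lowest adjusted p of the 10 (limma log2 fold change 0.36, SE 0.05, adjusted p = 0.00344). No 50-base word of Scarb2 recurred in another gene.

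Sort1 encodes sortilin, a receptor of prosaposin and other cargo (ENSMUSG00000068747, chromosome 3, 108284082 to 108361511, plus strand). It had 17.5, 15.1 and 17.7 FPKM in Tfeb siRNA libraries, against 16.8, 15.6 and 15.4 FPKM in scrambled siRNA libraries. The groups overlapped, since Tfeb siRNA replicate 2 was the lowest of all 6. Sort1 did not pass the limma test (log2 fold change 0.07, 95% interval -0.11 to 0.24, adjusted p = 0.521). Its log2 fold change was 0.14 without Tfeb siRNA replicate 2 and 0.03 without Tfeb siRNA replicate 3, and it passed in neither fit. Psap, which encodes prosaposin and was looked up after the values of Sort1 were seen, averaged 390.0 ± 15.0 FPKM in Tfeb siRNA and 399.2 ± 3.07 FPKM in scrambled siRNA libraries and did not pass (limma adjusted p = 0.668).

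Both genes of GlcNAc-1-phosphotransferase, the enzyme that starts the tag, rose. Gnptab encodes a precursor that is cut into the catalytic alpha and beta subunits (ENSMUSG00000035311, chromosome 10, 88379132 to 88447329, plus strand). It had 13.1, 13.2 and 13.8 FPKM in Tfeb siRNA libraries, against 11.2, 12.0 and 11.6 FPKM in scrambled siRNA libraries. The groups did not overlap, and replicates differed little. Gnptab rose 1.15-fold (limma log2 fold change 0.20, SE 0.05, adjusted p = 0.0252). The call was lost without Tfeb siRNA replicate 2 (0.0581) or 3 (0.0791), and without scrambled siRNA replicate 1 (0.0681) or 3 (0.0729).

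Gnptg encodes the gamma subunit, which helps the enzyme recognise part of its substrates (ENSMUSG00000035521, chromosome 17, 25233331 to 25240124, minus strand). It had 8.16, 8.74 and 8.998 FPKM in Tfeb siRNA libraries, against 6.44, 7.39 and 6.53 FPKM in scrambled siRNA libraries. The groups did not overlap, although scrambled siRNA replicate 2 stood above the others of its group. Gnptg rose 1.27-fold (limma log2 fold change 0.33, SE 0.07, adjusted p = 0.0134). Without scrambled siRNA replicate 3 the call was lost, at an adjusted p of 0.0505. Its values are uncertain: 1113 of its 2249 exon bases overlap exons of Unkl on the opposite strand, and whether counting used strand is not stated in the sources. Unkl had 1.17 ± 0.290 FPKM in Tfeb siRNA and 1.30 ± 0.228 FPKM in scrambled siRNA libraries and did not pass (limma adjusted p = 0.659).

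Gnptab to Gnptg stood at 1.60, 1.51 and 1.54 in Tfeb siRNA libraries, against 1.73, 1.62 and 1.78 in scrambled siRNA libraries. The lowest scrambled siRNA library lay only just above the highest Tfeb siRNA library. The log2 ratio differed by -0.14 between group means (exact two-sided permutation p = 0.1, the smallest possible). This ratio carries the uncertainty of Gnptg reads just described.

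Nagpa encodes the uncovering enzyme, which removes the sugar cap and exposes the tag (ENSMUSG00000023143, chromosome 16, 5195289 to 5204012, minus strand). It had 6.75, 7.001 and 6.88 FPKM in Tfeb siRNA libraries, against 6.70, 8.95 and 8.19 FPKM in scrambled siRNA libraries. Scrambled siRNA replicate 1 sat at the level of the Tfeb siRNA libraries, while its other 2 libraries stood above them. Nagpa did not pass the limma test (log2 fold change -0.19, 95% interval -0.42 to 0.05, adjusted p = 0.195). Without scrambled siRNA replicate 1 it passed, with a log2 fold change of -0.30 (adjusted p = 0.0221), so that 1 library decides this call. Without scrambled siRNA replicate 2 the log2 fold change was -0.10 (limma adjusted p = 0.466).

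Of the 3 GGA adaptors, which bind acidic dileucine signals in the receptor tails, Gga2 fell, Gga3 rose and Gga1 did not pass. Gga1, the most abundant of them (ENSMUSG00000033128, chromosome 15, 78877190 to 78894585, plus strand), had 17.8, 20.3 and 19.0 FPKM in Tfeb siRNA libraries, against 18.8, 21.9 and 21.7 FPKM in scrambled siRNA libraries. The groups overlapped, but Gga1 was the lower one in each of the 3 pairs of libraries with the same number. It did not pass the limma test (log2 fold change -0.12, 95% interval -0.31 to 0.06, adjusted p = 0.265), with -0.19 to -0.08 when 1 library was left out.

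Gga2 (ENSMUSG00000030872, chromosome 7, 121986722 to 122021222, minus strand) had 3.98, 4.32 and 5.12 FPKM in Tfeb siRNA libraries, against 5.94, 7.12 and 6.40 FPKM in scrambled siRNA libraries. All 3 Tfeb siRNA libraries lay below the scrambled ones. Gga2 fell 1.45-fold, the largest change of the 10 (limma log2 fold change -0.49, SE 0.10, adjusted p = 0.0113). Its 50-base words recurred for 7.79% in other transcripts, most of them in the antisense gene Gm44987, which was listed at 0 in all libraries.

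Gga3 (ENSMUSG00000020740, chromosome 11, 115584255 to 115604051, minus strand) had 7.06, 6.36 and 6.32 FPKM in Tfeb siRNA libraries, against 5.00, 5.00 and 4.44 FPKM in scrambled siRNA libraries. Each Tfeb siRNA library exceeded every scrambled siRNA library. Gga3 rose 1.37-fold (limma log2 fold change 0.41, SE 0.07, adjusted p = 0.00620). Of its 6245 exon bases, 127 overlap Mrps7 on the opposite strand, which averaged 20.2 FPKM in Tfeb siRNA and 20.1 FPKM in scrambled siRNA libraries and did not pass (limma adjusted p = 0.989). The 50-base words of Gga3 recurred for 7.86% in other transcripts, with Gm20691 the most frequent partner.

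The GGA transcripts together added up to 28.8, 31.0 and 30.4 FPKM in Tfeb siRNA libraries, against 29.8, 34.0 and 32.6 FPKM in scrambled siRNA libraries, and the groups overlapped (exact two-sided permutation p = 0.3). The sum was lower in Tfeb siRNA in each of the 3 same-numbered pairs (exact sign-flip p = 0.25, the smallest that 3 pairs allow). Within the sum, Gga2 made up 14.9% ± 1.69 in Tfeb siRNA and 20.2% ± 0.674 in scrambled siRNA libraries (SD, n = 3 each). Gga3 made up 21.9% ± 2.22 in Tfeb siRNA and 15.1% ± 1.61 in scrambled siRNA libraries. For both shares the groups did not overlap (exact two-sided permutation p = 0.1 for each of these, the smallest possible, and 0.4 for the share of Gga1).

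**Figure D3:**
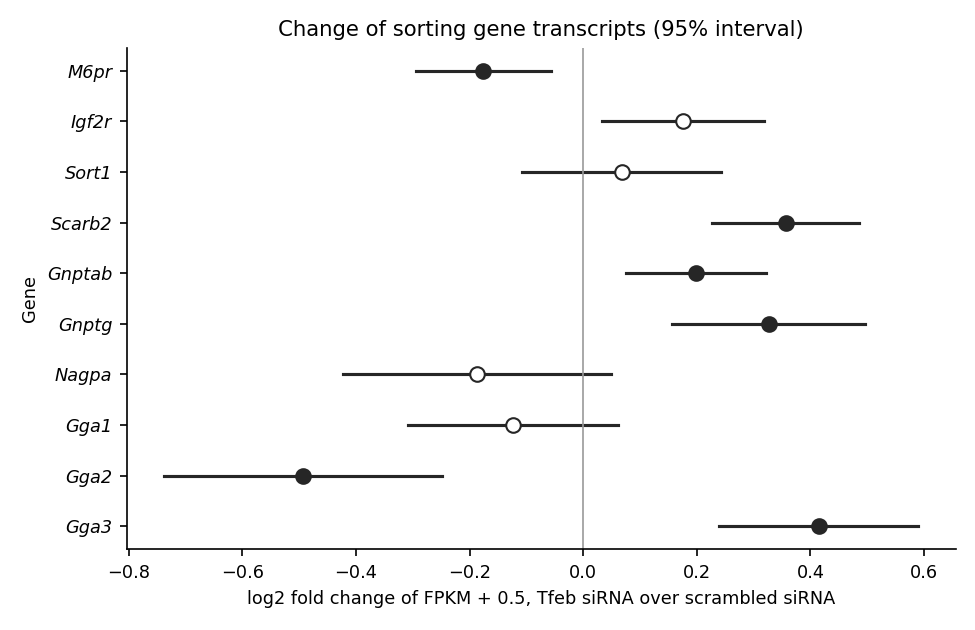
Log2 fold change of FPKM + 0.5 (Tfeb siRNA over scrambled siRNA, x axis) with its 95% interval from the limma model for each gene (y axis); filled points have an adjusted p below 0.05. Scarb2, Gnptab, Gnptg and Gga3 are filled right of 0, M6pr and Gga2 are filled left of 0, and the interval of Igf2r also lies above 0 although its adjusted p is 0.0622.

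Counted by overlap, 7 of the 10 genes had groups that did not overlap, against 48.7% of all tested genes. Of the 10, 5 did not overlap and were higher in Tfeb siRNA libraries, against 25.3% of all tested genes. Likewise 2 of the 10 did not overlap and were lower, against 23.5%. Within the pairs of libraries with the same number, 8 of the 10 kept 1 direction in all 3 pairs, against 67.6% of all tested genes; the exceptions were Sort1 and Nagpa.

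Other genes of the same route were taken from lists drawn up by function. For the clathrin coat and adaptors of the trans-Golgi network, 6 of 30 tested genes rose and 8 fell, which is 46.7% called against 33.3% of all tested genes. The median log2 fold change was 0.02, as over all tested genes. Arf1, the small GTPase that recruits GGA and AP-1 adaptors to membranes, rose 1.59-fold to 179.1 ± 4.24 FPKM in Tfeb siRNA libraries, against 113.0 ± 5.36 FPKM in scrambled siRNA libraries (limma adjusted p = 0.000417). Ap3d1, a subunit of the AP-3 adaptor, rose 1.46-fold. Ap1s3, a small subunit of AP-1, had 2.01 ± 0.205 FPKM in Tfeb siRNA and 3.46 ± 0.298 FPKM in scrambled siRNA libraries and fell 1.72-fold (limma adjusted p = 0.00326). Pi4kb, a lipid kinase of the Golgi, fell 1.41-fold.

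For the return of empty receptors from endosomes, 2 of 26 tested genes rose and 6 fell (median log2 fold change -0.01). The 30.8% called lay near the 33.3% of all tested genes. Snx5, a sorting nexin that binds the tail of IGF2R, rose 1.30-fold to 34.4 ± 1.02 FPKM in Tfeb siRNA libraries, against 26.4 ± 0.724 FPKM in scrambled siRNA libraries (limma adjusted p = 0.00184). Vps26a, a retromer subunit, rose 1.14-fold (limma adjusted p = 0.0469). Pacs1, a connector of receptor tails and AP-1, had 11.6 ± 0.858 FPKM in Tfeb siRNA and 15.5 ± 0.467 FPKM in scrambled siRNA libraries and fell 1.33-fold. Rabepk, a partner of the retrieval GTPase RAB9, fell 1.38-fold (limma adjusted p = 0.0343).

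Of 12 other tested receptors and chaperones of lysosomal cargo, 4 rose and 2 fell (median log2 fold change 0.08), so that 6 of 12 were called, against 33.3% of all tested genes. The sortilin relatives Sorcs2 and Sorl1 rose 1.71-fold and 1.43-fold, where Sort1 itself did not pass. Sorcs2 averaged 19.3 ± 0.677 FPKM in Tfeb siRNA and 11.3 ± 0.843 FPKM in scrambled siRNA libraries (limma adjusted p = 0.000559). Cln8 and Cln6, which form a complex that moves lysosomal enzymes out of the endoplasmic reticulum, both fell, 1.28-fold and 1.27-fold.

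Of 14 tested genes that mature the tagging enzymes or supply and trim the glycan, 4 rose and 2 fell (median log2 fold change 0.07), which is 42.9% called against 33.3% of all tested genes. Ganab, the catalytic subunit of glucosidase II, rose 1.85-fold to 158.5 ± 5.63 FPKM in Tfeb siRNA libraries, against 85.7 ± 5.48 FPKM in scrambled siRNA libraries (limma adjusted p = 0.000311), and the mannosidase Man1b1 rose 1.25-fold. The mannosidase Man1a fell 1.40-fold. Mbtps1, the site-1 protease that cuts the Gnptab product into its active subunits, had 15.8 ± 0.334 FPKM in Tfeb siRNA and 17.9 ± 0.552 FPKM in scrambled siRNA libraries and fell 1.13-fold (limma adjusted p = 0.0330).

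Among 53 tested lysosomal hydrolases, activators and related genes, many but not all of them cargo of this route, 14 rose and 13 fell. The median log2 fold change was 0.01, and 50.9% were called against 33.3% of all tested genes. Creg1, a secreted glycoprotein that is found in lysosomes, rose 2.02-fold to 22.5 ± 2.70 FPKM in Tfeb siRNA libraries, against 11.2 ± 0.507 FPKM in scrambled siRNA libraries (limma adjusted p = 0.000590). Lgmn, the protease legumain, also rose, and the sulfatase Arsb and the protease Ctsf fell 3.47-fold and 3.99-fold. The Ctsf value rests on only 25, 25 and 34 reads in the Tfeb siRNA libraries. Ctsf averaged 0.741 FPKM there and 2.96 FPKM in scrambled siRNA libraries, so it passed the filter of 1 FPKM only through the scrambled siRNA group. Of 10 tested genes in a list of IGF2R ligands, partners and related genes, 4 rose and 1 fell (median log2 fold change 0.02). Thus 5 of 10 were called, against 33.3% of all tested genes. The list is broad, and not every gene in it encodes a protein that binds IGF2R. Among the related genes, Igf1 fell 1.92-fold to 5.34 ± 1.33 FPKM in Tfeb siRNA libraries, against 10.3 ± 1.203 FPKM in scrambled siRNA libraries. Igf2bp1, an RNA-binding protein of the Igf2 transcript, rose 1.84-fold. Plaur, the urokinase receptor, which binds IGF2R, rose 1.26-fold (limma adjusted p = 0.0252). Igf2 itself lay below the filter.

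**Figure D4:**
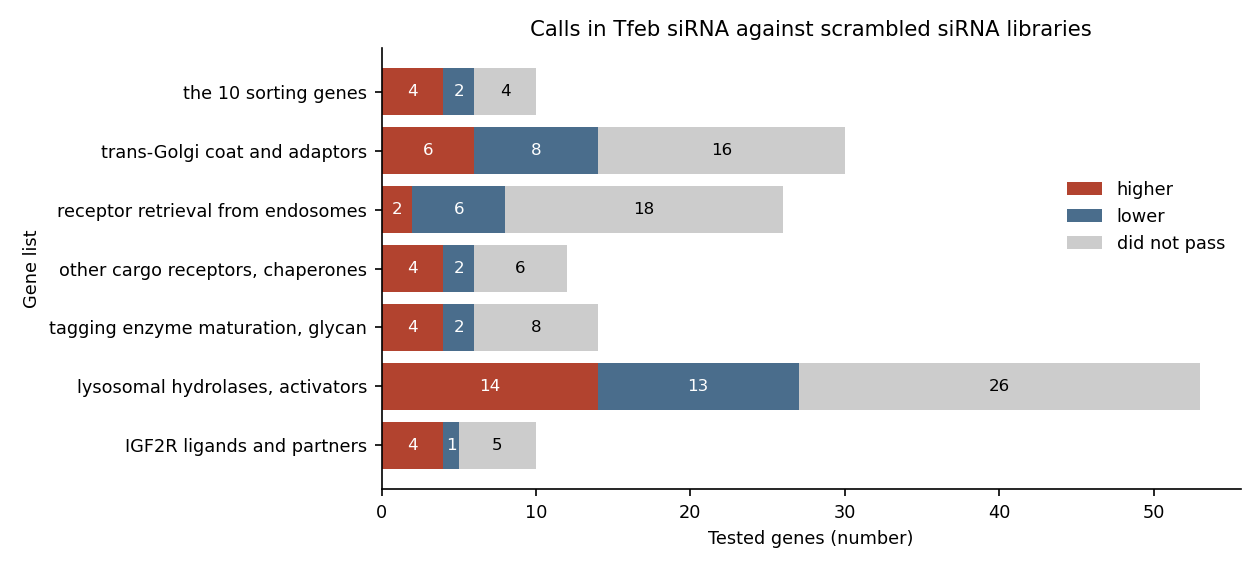
Number of tested genes (x axis) that were higher, lower or did not pass the limma test in Tfeb siRNA against scrambled siRNA libraries, for the 10 sorting genes and 6 lists of related genes (y axis). Every list holds genes of both directions, with 14 higher and 13 lower among the hydrolases and activators.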

How the data were processed

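The authors deposited 1 table of FPKM, with a column per library, per the file headers. The submitters' processing notes name the build mm10; the sources used here do not give the aligner, counter, annotation release or strand use. Of the columns, 0 belonged to other samples. Multiplying FPKM by gene length gave whole reads for 100% of values above 0 once divided by the step of the library (tolerance 1e-06), and thereby depth. The authors' depths equalled median-ratio size factors times a common depth (ratio 1), so libraries were already scaled to each other.

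The test was that of limma 3.58.1 under R 4.3.3 (eBayes with trend, two-sided, Benjamini-Hochberg over all tested genes) on log2(FPKM + 0.5), for 12257 genes with a mean of at least 1 FPKM. A call is an adjusted p below 0.05. Fold changes on this log2 scale understate the change of low genes; x-fold values are plain ratios of mean FPKM, and ± is the SD over 3 libraries. Ratios and shares used exact permutation tests (scipy 1.17.1). Intervals are 95% intervals of the limma model. The procedure was also run on simulated data. The outcome of that run is not given here, and no result rests on it. Alternatives were other pseudocounts, no filter, TPM scaling, a replicate block, limma-voom on derived reads, and leaving out each library.

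The members and lists were chosen with earlier results of these data known. Beyond the 10 genes and Tfeb, each list names its 2 called genes with the largest change in each direction; exceptions are marked. Replicate numbers come from the titles. Deviations of same-numbered libraries correlated at 0.382, 0.129 and 0.166 for numbers 1, 2 and 3, all above 0.1, and unlike-numbered libraries at up to 0.106. The main tests leave the numbers out; the fit with the replicate block is given where it changes a call. The titles do not state that the numbers pair the libraries. Of the correlations, only that of number 1 stood clearly apart from those of unlike-numbered libraries, so pairing is not established for numbers 2 and 3. Promoters are RefSeq windows, and 3' UTRs, overlaps and recurring 50-base words come from GENCODE M21, which gives the 10 genes the same start and end as the table. A few genes of the marker and cargo lists are not reported here.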

Additional observations from a re-analysis of the deposited data

How the results depend on the processing

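All 120 member results (10 genes under 12 alternatives) kept their direction, and 106 kept their side of the threshold. Scarb2, Gga2 and Gga3 were called under each of the 12, with adjusted p of 0.000638 to 0.0171, 0.00130 to 0.0410 and 0.00132 to 0.0231. Both pseudocounts, no filter and TPM scaling changed no call of the 10. With the replicate number as a block, Igf2r also passed (0.0304), which gave 5 higher, 2 lower and 3 not passing, and no other call changed; limma-voom on derived reads, chosen after seeing the data, gave the same counts (Igf2r 0.0344). The block gave 2542 higher and 2386 lower genes, against 2075 and 2005 without it. Leaving out 1 library gave 2 to 4 members higher, 1 to 2 lower and 5 to 7 not passing. The fewest higher, 2, came without scrambled siRNA replicate 3, and 1 lower remained without each library other than scrambled siRNA replicate 1, where Nagpa was called in place of M6pr. Fewer libraries are tested there by construction. Over the same 6 fits the M6pr to Igf2r log2 difference was -0.39 to -0.33, that of Gnptab to Gnptg -0.18 to -0.11, and that of the summed GGA transcripts -0.15 to -0.05. Within pairs the exact sign-flip p was 0.25 for each of these, the smallest that 3 pairs allow. For M6pr to Igf2r this too was fixed by the separation of both genes. Planned count-model tests of the derived reads with other packages were not run, because the table is FPKM. Depth sets a counting error of up to 5.90% per library for Nagpa and 5.75% for Gnptg, the members with the fewest reads.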

Other observations

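The genes whose profile over the 6 libraries was closest to that of a sorting gene were listed as a description, by the root mean square difference of log2(FPKM + 0.5) centred on each gene. For M6pr these were Msi2 (0.0143), Nol6 (0.0163) and Lrch1 (0.0166). For Scarb2 they were Akap12 (0.0155), Epb41 (0.0156) and Hyou1 (0.0162), and Akap12, a scaffold of protein kinase A, averaged 218.2 FPKM in Tfeb siRNA and 169.5 FPKM in scrambled siRNA libraries. For Gga3 they were Nfib (0.0113), Mtmr11 (0.0176) and Zmym2 (0.0248).

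The 5 endothelial markers summed to 0.337 to 0.466 FPKM in Tfeb siRNA and 0.289 to 0.554 FPKM in scrambled siRNA libraries, with Emcn at 0 in all. The 5 leukocyte markers summed to 2.10 to 2.35 FPKM in Tfeb siRNA and 4.13 to 4.41 FPKM in scrambled siRNA libraries, with Cd3e at 0 in all and Csf1r the one above 1 FPKM. The 6 tubular markers summed to 138.2 to 170.2 FPKM in Tfeb siRNA and 129.2 to 172.4 FPKM in scrambled siRNA libraries, with Aqp1 and Cubn above 1 FPKM and Umod at 0 in all. The 5 mesangial and pericyte markers summed to 31.8 to 34.3 FPKM in Tfeb siRNA and 32.5 to 34.4 FPKM in scrambled siRNA libraries, with Pdgfrb and Gata3 above 1 FPKM. Their part in the results for the sorting genes was not tested.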
